A study of Mus musculus with 6 samples.

Results

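The mouse zinc finger genes whose symbols are Zfp9 followed by 2 further digits, together with the predicted zinc finger gene Gm15446, were examined in whole hypothalamus. The symbol pattern was matched by 33 genes, so that the group held 34 of the 24513 genes in the count tables. The group was chosen by its names and by the levels of Zfp932 and Gm15446, already known to be lower in the mutant libraries of this series. The values of those 2 genes are therefore given as a description, and whether they passed a threshold supports nothing here. The question was whether the other members shared that fall. Such a number is a matter of naming and does not define a gene family.

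RNA from the hypothalamus of 3 wild-type (WT) and 3 NS-DADm mice was sequenced, with 1 library per mouse. All mice were of the C57BL/6 strain and aged 3 to 4 months. NS-DADm mice, as known for this line rather than from the labels, carry point mutations in the deacetylase-activating domains of nuclear receptor corepressors, NCOR1 among them, in all cells of the body. The labels give no sex, litter or dissection date, and whole hypothalamus was used, so fewer cells of a type and less RNA per cell cannot be told apart.

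Most of these genes encode proteins with an N-terminal KRAB box and an array of C2H2 zinc fingers. The fingers bind DNA, and the KRAB box recruits the scaffold protein TRIM28 (KAP1), which brings the histone methyltransferase SETDB1 and HP1 proteins to silence the bound site. Many of the sites lie in transposable elements. ZFP932 and the product of its paralog Gm15446 are known to bind endogenous retroviruses of the ERVK class and to repress them with TRIM28. Such genes arise by local duplication, so that close copies often lie side by side in clusters.

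Zfp932 (GRCm38, the mm10 build; chromosome 5, 109996521 to 110010411, plus strand) and Gm15446 (chromosome 5, 109923400 to 109943936, plus strand) lie 52.6 kb apart. Both are protein coding in GENCODE, whereas RefSeq lists Gm15446 as a long non-coding RNA. Their annotated coding sequences, of 1578 and 1659 bases, differed at 23 of 1575 aligned bases (98.5% identity), and the encoded proteins at 13 of 525 aligned residues. The 120-base stretch that held the most differences is shown here. A read wholly within the aligned coding bases can be assigned to 1 of the 2 genes only where it covers a base that differs. Reads from other parts of the transcripts are not covered by this. Capitals mark the 5 bases that differ, and the stretch runs from coding base 1141 to 1260 in Zfp932 and from 1222 to 1341 in Gm15446.
Zfp932: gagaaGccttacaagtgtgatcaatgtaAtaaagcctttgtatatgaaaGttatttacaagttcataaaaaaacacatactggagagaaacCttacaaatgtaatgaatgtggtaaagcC
Gm15446: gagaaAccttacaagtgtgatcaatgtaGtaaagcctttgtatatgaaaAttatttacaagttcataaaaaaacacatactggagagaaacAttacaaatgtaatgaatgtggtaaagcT
The longest run without any difference was 195 bases. Its first 120 bases, from coding base 748 of Zfp932, are the same in both genes, and a shorter read that falls inside them fits both.
Shared stretch: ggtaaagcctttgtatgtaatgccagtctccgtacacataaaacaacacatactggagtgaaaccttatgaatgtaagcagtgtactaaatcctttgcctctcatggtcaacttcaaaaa
Of all 50-base windows in the annotated transcripts, 37% of those of Zfp932 and 32.7% of those of Gm15446 also occurred in a transcript of another gene. A length of 50 was chosen for this description, because the read length is not given in the sources used here.

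Levels are read counts per 1e6 reads on the tested genes (CPM), scaled with TMM factors. Zfp932 measured 53.1, 57.2 and 63.6 CPM in WT 1, 2 and 3. It measured 34.4, 35.9 and 35.6 CPM in NS-DADm 1, 2 and 3. Each NS-DADm library lay below each WT library, and the NS-DADm libraries lay close together. The means were 58.0 ± 5.3 and 35.3 ± 0.80 CPM (SD, n = 3 each), so that the NS-DADm level was 60.9% of the WT level. The fitted log2 fold change was -0.71 ± 0.07 (SE), a 1.64-fold decrease.

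Gm15446 was read at a much lower depth, with 180, 134 and 193 counts in WT 1, 2 and 3. There were 29, 48 and 32 counts in NS-DADm 1, 2 and 3. These counts correspond to 6.58, 4.90 and 7.31 CPM in WT compared with 1.19, 1.74 and 1.22 CPM in NS-DADm libraries. The groups again did not overlap, and the mean fell from 6.26 ± 1.2 to 1.38 ± 0.31 CPM (SD, n = 3 each), to 22% of the WT level. The fitted log2 fold change was -2.17 ± 0.20 (SE), a 4.50-fold decrease.

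**Figure D1:**
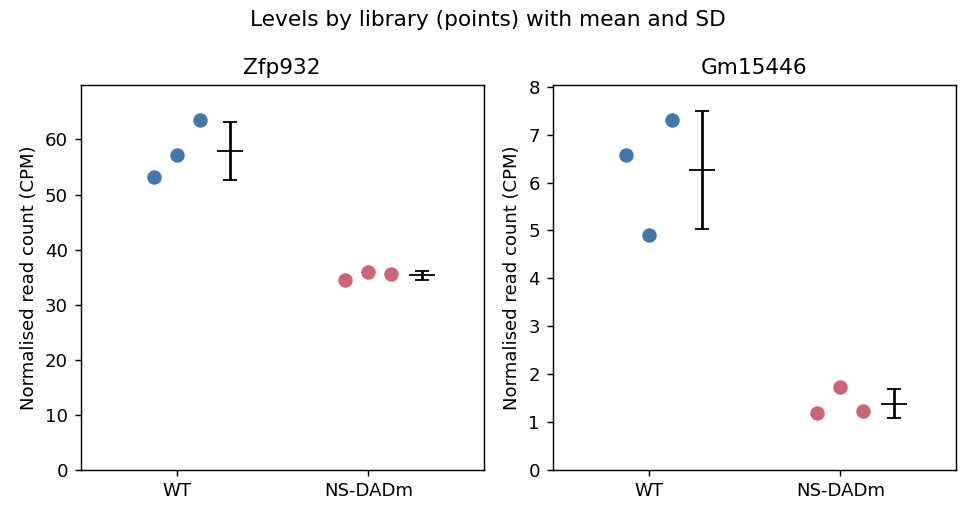
Normalised read counts (CPM, y axis) of Zfp932 and Gm15446 in each of the 3 WT and 3 NS-DADm libraries (points), with the mean and SD beside them. For Zfp932 the NS-DADm libraries lie between 34.4 and 35.9 CPM and the WT libraries between 53.1 and 63.6 CPM, and for Gm15446 the groups do not overlap either.

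The share of Gm15446 in the pair was lower in NS-DADm libraries. Gm15446 made up 11.0, 7.88 and 10.3% of the summed counts of the pair in WT 1, 2 and 3. Its share was 3.33, 4.62 and 3.30% in NS-DADm 1, 2 and 3. The highest NS-DADm share had an exact (Clopper-Pearson) 95% interval of 3.42 to 6.07%, and the lowest WT share one of 6.65 to 9.27%. These intervals cover counting error only and are no test between mice. Because reads that align to more than 1 place were left out of the gene rows, the level of each gene counts only its distinguishable part. Summed into 1 feature, the pair measured 64.2 ± 5.9 CPM in WT mice, compared with 36.7 ± 1.0 CPM in NS-DADm mice (SD, n = 3 each), and the fitted log2 fold change was -0.81.

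The fall was not found in the other members. Of the 34 members, 32 passed the filter on low counts, which left 30 besides the pair. Genes were called at a Benjamini-Hochberg (BH) adjusted p under 0.05 in edgeR's quasi-likelihood test over all 15894 tested genes, of which 0.573% were called lower and 0.0818% higher in NS-DADm mice. The 2 members called lower were the pair, as their choice had fixed. Of the other 30 tested members, 0 were called in either direction by edgeR, and 0 had an unadjusted p under 0.05, beside 6.46% of all genes with such a p and a lower value and 4.40% with a higher value. The DESeq2 Wald test and limma voom also called 0 of the 30. By edgeR without WT 1, 1 of the 30, Zfp941, was called lower (BH adjusted p = 0.0055). The count at an unadjusted p under 0.05 (edgeR) depended on single WT libraries. Without WT 1, 3 of the 30 had such a p and a lower value. Without WT 3, 4 had such a p and a higher value. Leaving out any other single library gave at most 1. The shares over all genes in those fits are not given here. Since 0.654% of all genes were called in either direction, a count of 0 in 30 lies near the background.

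The intervals say more than the count. In 29 of the 30 members the 95% interval of the log2 fold change lay wholly above the -0.71 of Zfp932. The exception was Zfp960, with a log2 fold change of -0.38 and an interval from -1.17 to 0.41. All 30 intervals held 0, and 27 stayed within 0.5 either way. The widest of them reached 0.79 to either side and the narrowest 0.13. The median log2 fold change of these 30 members was -0.008, beside 0.004 over all tested genes, with 18 fitted below 0 and 12 above.

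**Figure D2:**
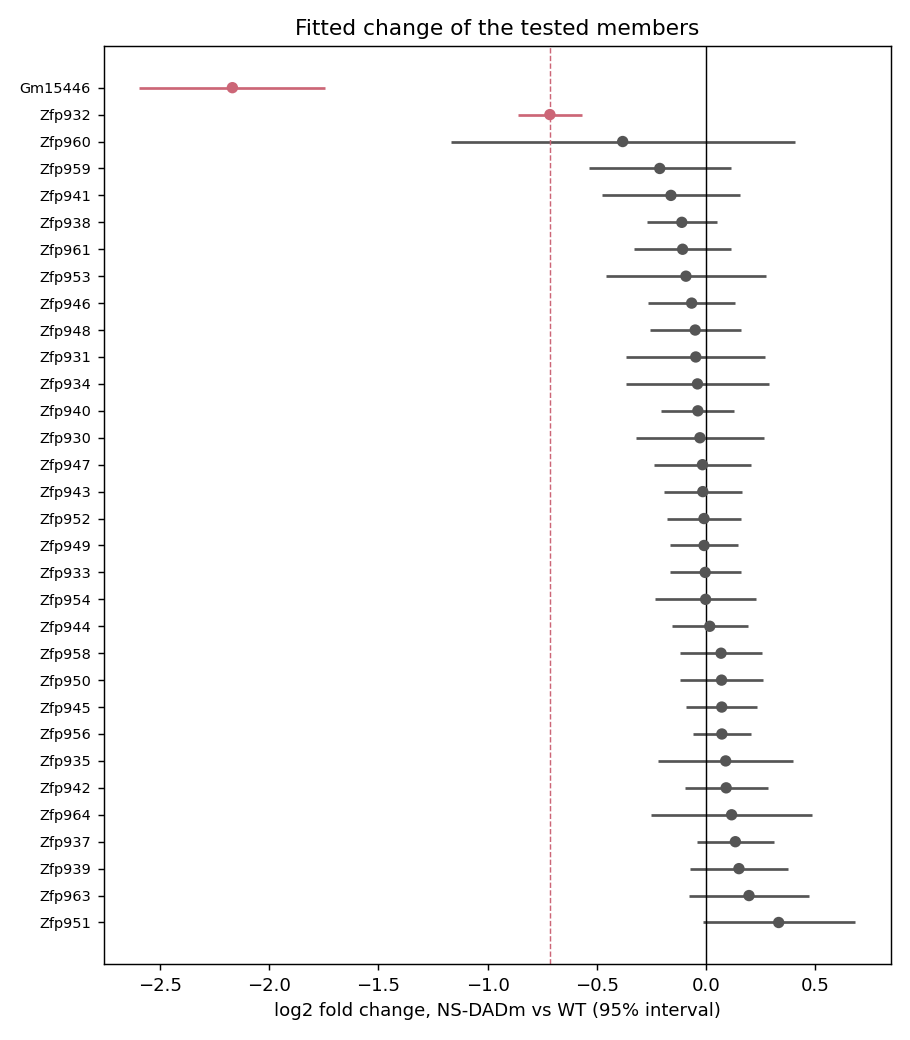
Fitted log2 fold change, NS-DADm against WT (x axis), of the 32 tested members, 1 per line, with 95% intervals as bars; called genes are in red. The dashed line marks the -0.71 of Zfp932, and apart from Gm15446 only the bar of Zfp960 reaches it.

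In the other 30 members the libraries of the groups overlapped without exception, whereas 16.8% of all tested genes had groups that did not overlap (8.93% lower and 7.86% higher in NS-DADm mice). The remaining 2 of the 34 members were not tested. Zfp936 had 2 to 6 counts and Zfp957 had 2 to 5 counts per library, too few to compare.

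Among members with a mean of at least 1 CPM, the next largest fitted falls after the pair were those of Zfp960, Zfp959, Zfp941 and Zfp938. Zfp960 measured 1.13, 3.29 and 2.12 CPM in WT libraries, compared with 2.005, 1.74 and 1.29 CPM in NS-DADm libraries, so that WT 1 was the lowest and WT 2 the highest of all 6. Zfp959 measured 4.28, 3.25 and 4.43 CPM in WT libraries, compared with 3.35, 3.73 and 3.23 CPM in NS-DADm libraries (log2 -0.21; edgeR, BH adjusted p = 0.68). Zfp938 measured 19.7 ± 0.68 and 18.3 ± 1.1 CPM (log2 -0.11; edgeR, BH adjusted p = 0.66). All of these encode predicted C2H2 zinc finger proteins with a KRAB pattern.

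Zfp941 was the most abundant member, with 67.7, 91.4 and 97.6 CPM in WT 1, 2 and 3, compared with 72.7, 81.2 and 75.9 CPM in NS-DADm 1, 2 and 3. Its log2 fold change was -0.16 (edgeR, BH adjusted p = 0.76). WT 1 stood below every other library. Without WT 1 the log2 fold change of Zfp941 was -0.30 and passed the threshold (edgeR, BH adjusted p = 0.0055). Leaving out single libraries moved it between -0.30 and -0.05.

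The largest fitted rises were those of Zfp951, Zfp963, Zfp939, Zfp937, Zfp964 and Zfp942, with log2 fold changes of 0.33, 0.20, 0.15, 0.14, 0.12 and 0.09. Zfp951 was also the member closest to the threshold after the pair. It measured 4.02, 4.61 and 5.15 CPM in WT libraries, compared with 5.36, 7.20 and 4.75 CPM in NS-DADm libraries (edgeR, BH adjusted p = 0.49). NS-DADm 2 stood apart from the rest, and NS-DADm 3 lay within the WT range. Zfp951 is the only other member on chromosome 5, 5.06 Mb from Gm15446, and its fitted value has the opposite sign. Zfp939, annotated in GENCODE as a transcribed pseudogene, measured 8.35 ± 0.78 and 9.28 ± 0.56 CPM (edgeR, BH adjusted p = 0.66).

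Zfp950, next in abundance to Zfp941, measured 64.9, 80.6 and 84.2 CPM in WT libraries, compared with 78.5, 78.7 and 84.3 CPM in NS-DADm libraries (log2 0.07). Per kb of annotated exon the order of levels differed from that of the read counts. On that scale Zfp941 had 17.2, Zfp932 14.3 and Zfp956 12.2 CPM per kb over all 6 libraries. In WT alone Zfp941 and Zfp932 were close, at 18.1 and 17.7 CPM per kb. In NS-DADm mice they were apart, at 16.2 and 10.8.

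The members lay on 12 chromosomes, with 10 on chromosome 17, 5 each on chromosomes 7 and 8 and 3 each on chromosomes 5 and 13. The densest run was on chromosome 17 from 17064113 to 22867134, with 8 members from Zfp960 to Zfp945. Their log2 fold changes ran from -0.38 to 0.09, with 5 below 0 and 3 above. A run of 4 on chromosome 8 (Zfp930, Zfp964, Zfp963 and Zfp961) had -0.11 to 0.20, with 2 of each sign. Zfp935, Zfp934 and Zfp953 on chromosome 13 had -0.09 to 0.09. No member of these runs was called.

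Many of the other 30 members varied alike among WT libraries. The counts that follow were not made over all tested genes, so the pattern is not shown to be particular to these members. WT 1 was the lowest of the 6 libraries for 19 of them, and WT 3 the highest for 17. Their summed level was 491, 562 and 601 CPM in WT 1, 2 and 3, compared with 552, 550 and 551 CPM in NS-DADm 1, 2 and 3. The NS-DADm libraries lay close together and inside the WT range. Zfp932 was also lowest in WT 1 and highest in WT 3 among the WT libraries, but all of these lay above its NS-DADm values. Gm15446 was lowest in WT 2. The median log2 fold change of these 30 members, -0.008 with all libraries, was -0.046 without WT 1 and 0.054 without WT 3. Thalamus markers also varied among WT libraries, with summed levels of 1338, 864 and 1063 CPM in WT 1, 2 and 3. Their part in the members' levels among WT libraries was not tested.

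**Figure D3:**
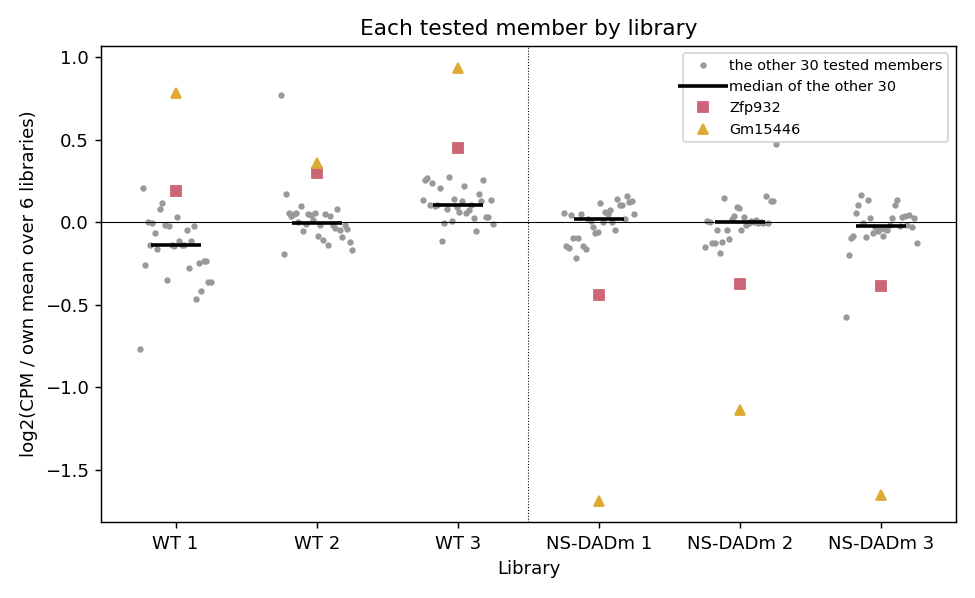
Level of each of the 32 tested members in each library, as log2 of its CPM over its own mean of the 6 libraries (y axis); grey points are the other 30 members and black bars their median. The medians are -0.14 in WT 1 and 0.10 in WT 3 and near 0 in the NS-DADm libraries, while Zfp932 (squares) and Gm15446 (triangles) lie above 0 in WT and below it in all 3 NS-DADm libraries.

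Several members match a transcript of another annotated gene almost exactly, and their levels may be uncertain for that reason. For genes outside the count tables, it was not checked whether the match is a separate copy or overlaps the member. A transcript of another gene matched at 95% identity or more over at least 500 bases in 9 of the 34 members, the pair included. The other 7 were Zfp931, Zfp934, Zfp935, Zfp936, Zfp959, Zfp960 and Zfp963. All 50-base windows of Zfp935 and 82.7% of those of Zfp960 were shared with another gene. Of these 7, Zfp936 was not tested. The log2 fold changes of Zfp931, Zfp934, Zfp935, Zfp959, Zfp960 and Zfp963 were -0.05, -0.04, 0.09, -0.21, -0.38 and 0.20, and none passed the threshold. Of all members, 21 shared under 10% of their windows with another gene. Zfp934 and Zfp935 overlap each other, and Zfp950, Zfp956 and Zfp961 overlap Grk5, Zfp783 and Cyp4f18, so reads there may have been left out as ambiguous or assigned to either gene.

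The genes around Zfp932 were examined next. Within 1 Mb of its start, 23 genes besides the pair were tested, and 0 of them were called in either direction by edgeR, beside 0.654% of all tested genes. At an unadjusted p under 0.05, 0 had lower and 2 had higher values, beside 6.46% and 4.40% of all tested genes. For the calls, a count of 0 in 23 lies near the background. On the side away from Gm15446, the nearest tested genes were Plcxd1, Gtpbp6 and Zfp605, 103, 108 and 114 kb away. Plcxd1, which encodes a phospholipase C-like protein, measured 22.6 ± 1.2 and 23.0 ± 1.5 CPM. Gtpbp6, a GTP-binding protein gene, measured 7.76 ± 0.67 and 6.87 ± 0.80 CPM (SD, n = 3 each; log2 -0.18; edgeR, BH adjusted p = 0.65). Neither passed the threshold.

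Zfp605, a further zinc finger gene, measured 17.2, 35.7 and 19.3 CPM in WT 1, 2 and 3, compared with 18.9, 18.6 and 19.4 CPM in NS-DADm 1, 2 and 3. WT 2 alone stood high, and the other 5 libraries lay together. Its log2 fold change was -0.35 (edgeR, BH adjusted p = 0.80). On the side of Gm15446, the nearest tested genes beyond it were Gm10416 and Crlf2, which encodes a cytokine receptor subunit. Gm10416 had 14 to 16 counts per WT library, compared with 11 to 18 per NS-DADm library. Crlf2 measured 11.5 ± 2.0 and 10.6 ± 0.52 CPM (SD, n = 3 each; log2 -0.12; edgeR, BH adjusted p = 0.80).

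**Figure D4:**
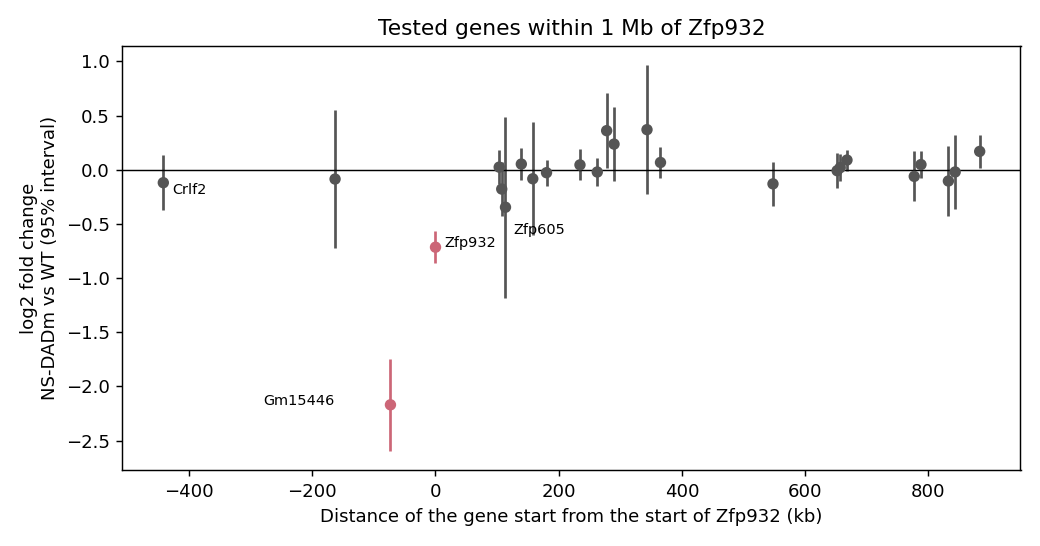
Fitted log2 fold change, NS-DADm against WT (y axis), of the 25 tested genes within 1 Mb of Zfp932, itself included, by the distance of their starts in kb (x axis), with 95% intervals; called genes are in red. Zfp932 and Gm15446 lie at -0.71 and -2.17, and the genes on either side have intervals that hold 0 out to beyond Zfp605.

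Over the whole of chromosome 5, 7 of 967 tested genes besides the pair were called, all lower (0.724%), beside 0.573% of all tested genes called lower.

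Genes of the partners through which KRAB zinc finger proteins act were also compared. Of 33 listed cofactors and repressor genes, 32 were tested and 0 passed the threshold in either direction (edgeR), beside 0.654% of all tested genes. At an unadjusted p under 0.05, 2 had lower and 2 had higher values, beside 6.46% and 4.40% of all tested genes. Counts of this size in 32 genes lie near the background. DESeq2 and limma voom also called 0. Trim28, the gene of the scaffold TRIM28, measured 145 CPM in WT mice, compared with 149 CPM in NS-DADm mice (log2 0.04; edgeR, BH adjusted p = 0.85). Setdb1, for the H3K9 methyltransferase recruited by it, measured 54.0 and 58.8 CPM (log2 0.12; edgeR, BH adjusted p = 0.53). The smallest p values on the list belonged to the chromatin remodeller gene Chd3 (log2 -0.11), to Hdac3 (0.11) and to the histone demethylase gene Kdm1a (-0.11), with BH adjusted p = 0.43, 0.43 and 0.44 by edgeR. Ncor1 measured 230 and 226 CPM (log2 -0.03). Point mutations can leave transcript levels as they are, so this level is no check of the genotype labels. The median of the list was 0.005, and its log2 fold changes ran from -0.11 to 0.12.

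Other zinc finger genes were counted in the same way. Of 304 further genes named Zfp with any other number, 294 were tested and 0 were called by edgeR, beside 0.654% of all tested genes. At an unadjusted p under 0.05, 3 had lower and 4 had higher values, beside 6.46% and 4.40% of all tested genes. The DESeq2 Wald test called 1 of them, Zfp365. Their median log2 fold change was -0.0005. In 22 of the 294 (7.48%) the groups did not overlap, beside 16.8% of all tested genes. Genes that resemble Zfp932 in sequence were also at hand outside the named group. A630089N07Rik, with 83.6% identity over 1424 bases, measured 31.3 ± 4.8 CPM in WT mice, compared with 35.3 ± 1.8 CPM in NS-DADm mice (log2 0.17). Gm20939, with 83.1% identity over 1393 bases, measured 7.26 ± 1.3 and 6.62 ± 0.76 CPM (log2 -0.13). Neither passed the threshold (edgeR, BH adjusted p = 0.60 and 0.82).

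A coding model was available for 33 members. The number of C2H2 fingers per protein, counted as the pattern C-x2-C-x12-H-x3-H in the translated model, had a median of 11 and ran from 0 to 18. Zfp932 had 15 and Gm15446 had 16. Members with at least as many fingers as Zfp932 that were not called included Zfp945 with 18, Zfp950 with 17 and Zfp948 with 15. Their log2 fold changes were 0.07, 0.07 and -0.05. A simple pattern for the start of a KRAB box was found in 31 of the 33, and not in Zfp956 or Zfp957. Zfp935 and Zfp957 had 0 fingers in the models used, and Zfp957 was among the 2 members with too few counts to test.

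The sequence before the start of Zfp932 is shown because this gene carried the fall with the most reads. It runs over chr5:109996260-109996501 on the plus strand of GRCm38.p6 (RefSeq) and ends 1 base before the RefSeq start of the gene. Capitals mark a CCAAT motif, which is bound by the factor NF-Y in many promoters.
Zfp932 upstream: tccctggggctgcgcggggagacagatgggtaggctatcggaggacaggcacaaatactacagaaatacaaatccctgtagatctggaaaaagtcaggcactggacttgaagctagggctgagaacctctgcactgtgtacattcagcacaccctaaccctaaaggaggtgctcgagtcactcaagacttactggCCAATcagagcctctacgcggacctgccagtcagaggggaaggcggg
In the first 250 bases of the RefSeq promoter windows, which cover the sequence before the start, CCAAT occurred on either strand in 20 of the 31 members with a RefSeq promoter (64.5%) and in 39% of all genes of the tables that have one. AGGTCA, the half-site of many nuclear receptors, occurred in 3 of the 31 members (9.68%), beside 14.5% of all genes. It was not among the letters of the windows of Zfp932 or Gm15446, and CCAAT was not in that of Gm15446. Such matches describe letters only and say nothing of binding.

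The libraries held 24.2 to 27.6 M reads on genes (in units of 1e6). All 11 listed hypothalamus markers were read, with summed levels of 779 to 839 CPM in WT mice, compared with 800 to 955 CPM in NS-DADm mice. Of these markers 1 was called higher by edgeR, beside 0.0818% of all tested genes. All 13 thalamus markers were lower in NS-DADm mice without overlap, beside 8.93% of all tested genes. Their sums were 864 to 1338 CPM in WT libraries, compared with 576 to 663 CPM in NS-DADm libraries. The marker lists were chosen with earlier results of these data known, so these counts are a description only. Anterior pituitary markers summed to 39.8 to 111 CPM in WT mice, compared with 202, 2021 and 199 CPM in NS-DADm 1, 2 and 3. Most of each sum was Gh, at 30.5 to 96.0 CPM in WT mice and 167, 1810 and 172 CPM in NS-DADm 1, 2 and 3. Of the 7 tested pituitary markers, 3 were higher without overlap, beside 7.86% of all tested genes, and 4 overlapped between the groups. The 4 microglia markers had sums of 141 to 146 and 120 to 128 CPM, and the 4 oligodendrocyte markers of 4361 to 4704 and 3733 to 4292 CPM. Sums of the 4 astrocyte markers overlapped, at 1157 to 1232 and 1199 to 1240 CPM. Of the 4 blood markers, the 3 globin genes Hba-a1, Hba-a2 and Hbb-bs were at 0 in every library. Alas2 had 19 to 30 counts per library. The cause of the zeros was not tested, and they do not show that blood was absent. The part of these differences in the members' levels was not tested. A fit with the mean thalamus marker level as a covariate was made, but that fit cannot separate marker level from genotype. The mean log2 CPM of these markers was 5.19 to 6.02 in WT libraries and 4.18 to 4.55 in NS-DADm libraries, without overlap. In that fit the log2 fold change of Zfp932 was -0.84 and that of Gm15446 was -1.72, and neither passed the threshold (edgeR, BH adjusted p = 0.0687 and 0.201). Leaving out each library in turn gave -0.77 to -0.64 for Zfp932 and -2.38 to -2.05 for Gm15446.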

How the data were processed

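Hypothalamic RNA of 3 WT and 3 NS-DADm mice was used, with 1 library each, grouped by the titles in the labels. The authors deposited raw read counts per gene symbol, with no normalization. TopHat2 2.0.9, HTSeq and the mm10 build are named, per the submitters' processing notes. An HTSeq version, the annotation and the strand setting are not given in the sources used, so overlapping and antisense genes cannot be told apart. Of the 24518 rows per table, 5 classes of unassigned reads were left out of library sizes and tests. They comprised 13.3 to 14.8% of entries outside genes, 1.00 to 1.06% ambiguous and 14.3 to 16.5% not unique.

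After filterByExpr, 15894 genes remained. They were fitted together, with TMM factors of 0.992 to 1.01, in edgeR 4.0.16 in R 4.3.3 (quasi-likelihood F test, robust, no covariates). A gene was called at a Benjamini-Hochberg (BH) adjusted p under 0.05 over all genes tested. Standard errors came from the fold change and F statistic, and 95% intervals from the t distribution with the fit's degrees of freedom. The fit was tested in 3 runs of simulated data. It recovered 67.3% of 1.3-fold, 85.3% of 1.5-fold and 96.7% of 2-fold changes. Of 568 calls, 44 were false. Small changes can therefore go uncalled. In the simulated data the genes varied independently of each other, and changes were set only in genes above a minimum mean level. The shares recovered in the real libraries may differ. No source states that the mice came from separate litters, and p-values measure the spread between these mice.

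Members were all symbols of Zfp9 and 2 more digits plus Gm15446. Members, gene lists and alternatives were chosen with earlier results of these data known. Named in full were the pair, other called members and the 6 largest fitted falls and rises among members of at least 1 CPM. The 3 most abundant members, the member nearest the threshold, members with near-identical matches to another gene and the nearest tested neighbours were named too. Positions came from GENCODE, or from RefSeq where it lacked a symbol (96.4% of symbols matched, all 34 members included). Both use GRCm38, the build named mm10. GENCODE lists 64 Zfp9xx symbols, and those beyond the 33 were not analysed here. Results on 1 further gene are not reported here. Identities came from BLAST 2.17.0 against GENCODE transcripts. Zinc fingers were counted in translated coding sequences. Figures were drawn with matplotlib 3.10.9. Alternatives were other scaling factors and filters, DESeq2 1.42.0, limma 3.58.1 voom, a minimum fold of 1.2, a replicate block, a thalamus marker covariate, libraries left out and the pair summed.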

Additional observations from a re-analysis of the deposited data

How the results depend on the processing

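With the thalamus marker covariate Zfp932 and Gm15446 had log2 fold changes of -0.84 and -1.72 and did not pass the threshold (edgeR, BH adjusted p = 0.0687 and 0.201), which left 0 members and 0 genes within 1 Mb of Zfp932 called lower. That covariate moved with the genotype groups. With the pair summed, 1 member and 0 neighbours were called lower by construction. The median log2 fold change of all 32 tested members, the pair included, was -0.011, compared with -0.13 with the covariate, -0.056 without WT 1 and NS-DADm 2 together and -0.052 to 0.052 with single libraries left out. Members called lower numbered 2 to 3 with single libraries left out. Zfp941 was called without WT 1 (log2 -0.30) and without WT 1 and NS-DADm 2 together (-0.35).

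Signs of small changes turned. With the covariate, log2 fold changes were 0.18 for Zfp959, -0.22 for Zfp951, -0.048 for Zfp963, -0.088 for Zfp939, -0.019 for Zfp937, -0.27 for Zfp964, -0.037 for Zfp942 and -0.23 for Zfp950, and Zfp960 and Zfp941 had -2.08 and -0.70. Without WT 1 and NS-DADm 2 together, Zfp964 had -0.089 and Zfp950 -0.017. With single libraries left out the lowest and highest values were -0.69 and 0.046 for Zfp960 (highest without WT 2), -0.029 and 0.30 for Zfp964 and -0.031 and 0.15 for Zfp950. None of these values passed the threshold, and the cause was not tested.

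Over all genes, 91 were called lower and 13 higher. Lower and higher calls numbered 172 and 31 with no filter, 233 and 49 with DESeq2, 3 and 7 with the covariate, 6 and 2 with a minimum fold of 1.2 and 345 and 239 without WT 1 and NS-DADm 2 together; with plain library totals 60 were lower. With single libraries left out they ranged from 4 to 243 and from 1 to 102. Other numbered Zfp genes called lower rose from 0 to 1 with no filter, with DESeq2, without WT 1 and NS-DADm 2 together and, in the range of 0 to 1, with single libraries left out. Without WT 1 and NS-DADm 2 together, 3 of them and 2 cofactors, Dnmt3a among them, were called higher.

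The titles number the mice of both groups 1 to 3, and nothing says that a number marks a shared litter or day. Deviations from the group means of same-numbered libraries correlated at 0.13, 0.09 and -0.03. Whether same-numbered mice shared anything besides the number was not tested. With a replicate block 332 genes were called lower and 77 higher, other numbered Zfp genes 1 lower, Zfp932 had -0.71 and Gm15446 -2.16. WT 1 and WT 2 correlated best with their own number, and WT 3 did not.

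Gm15446 rests on 29 to 193 counts per library, and Zfp936 and Zfp957 on too few to compare.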
